A study of Mus musculus with 127 samples.

Results

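Striatal neurons that carried the expanded 97Q huntingtin fragment were compared with neurons that carried the 25Q fragment, all of them grown with the histone deacetylase inhibitor RGFP109. The comparison holds 26 neurons labelled 97Q-Htt with RGFP109 and 23 neurons labelled 25Q-Htt with RGFP109, which are 49 of the 127 single cells of the series, and they were chosen by these labels alone. The 97Q vehicle group (26 neurons) and the 25Q vehicle group (29 neurons) received the solvent DMSO in place of the compound, and they share no cell with the 2 RGFP109 groups. The question was whether differences between the 97Q and the 25Q fragment appear in cells other than the vehicle-treated ones.

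All 4 groups were striatal neurons of newborn wild type C57BL/6 mice, grown singly on small islands of cortical astrocytes so that each neuron formed synapses on itself. A lentivirus delivered exon 1 of human HTT joined to green fluorescent protein, with 25 or 97 glutamine codons, so every neuron of the 4 groups made a human huntingtin fragment besides its own mouse Htt. RGFP109, which acts on HDAC1 and HDAC3, was given at 100 nM from day in vitro 6 and again every 3 days. At day in vitro 15 each neuron was recorded through a patch pipette that then drew in its content for RNA sequencing, a method called Patch-seq. The transgene has no row in the deposited table, so the label of a cell could not be checked against its construct, and the mouse Htt gene averaged 67.7 ± 25.2 CPM in 97Q RGFP109 sums and 39 ± 19.1 CPM in 25Q RGFP109 sums (SD, n = 3 batches each). The labels name no animal or culture for a cell.

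Most neurons of the striatum are projection neurons that use GABA, the main inhibitory transmitter of the brain. GABA is made from glutamate by the glutamic acid decarboxylases GAD67 (Gad1) and GAD65 (Gad2), packed into vesicles by the transporter VGAT (Slc32a1) and broken down by GABA transaminase (Abat). In Huntington's disease an expanded glutamine tract in huntingtin leads to the loss of these neurons, and lower expression of many neuronal genes is a known feature of its models. Histone deacetylases remove acetyl groups from histones, a step generally tied to lower transcription, which is why their inhibitors have been tried in such models.

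Cells of 1 group and 1 labelled batch had their raw counts summed, which gave 3 sums per group. The cells of each sum numbered 8, 4 and 14 for 97Q RGFP109 and 8, 4 and 11 for 25Q RGFP109 in batches 1, 2 and 3. An RGFP109 neuron had 999700 to 8480860 counts (median 4336975) in 7035 to 15455 genes, and a sum had 10428520 to 76217208 counts. Levels are given as CPM (read counts scaled to a common library size), adjusted by edgeR's TMM factors for sums and unadjusted for single cells, and differences as log2 fold changes, 97Q over 25Q, so that a negative value means lower in 97Q. Because p-values rest on 3 batches that may differ for technical reasons only, they measure the spread between these sums and not between animals. In summed cells, fewer cells that express a gene and less RNA per cell cannot be told apart, so levels of single neurons are given beside the sums for the leading genes.

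The labelled cell type was checked on marker genes. Summed over 20 pan-neuronal markers, the sums had 5580 to 12670 CPM in 97Q RGFP109 and 10350 to 13840 CPM in 25Q RGFP109, against 956 CPM in the sum of the 14 astrocytes. At least 100 CPM of Gad1 was reached by 21 of 26 97Q RGFP109 neurons and by 23 of 23 25Q RGFP109 neurons, while the astrocytes had at most 2.45 CPM of Gad1 and 0.816 CPM of Gad2. Markers of glutamatergic neurons were sparse, with 1.55 to 23.4 CPM summed over the 12 genes in 97Q RGFP109 and 3.45 to 20.4 CPM in 25Q RGFP109. The defining projection neuron genes were uneven, since Ppp1r1b, which encodes DARPP-32, reached 100 CPM in 6 of 26 97Q RGFP109 neurons and in 6 of 23 25Q RGFP109 neurons.

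1 library went against its label. Cell 9 of the 97Q RGFP109 group, which makes up 34.48% of the counts of the batch 2 sum, had 13842 CPM over 15 microglia markers, while the highest other neuron had 1106 CPM. Its pan-neuronal markers summed to 1244 CPM, against a median of 10530 CPM over the neurons of the 4 groups. Genes of macrophages and microglia stood high in it, with 106500 CPM of Spp1 (osteopontin), 101900 CPM of Mmp12 (macrophage elastase), 60530 CPM of Lyz2 (lysozyme) and 12220 CPM of Ctss (cathepsin S), whereas Cx3cr1, P2ry12 and Tmem119 were at 0 and Gad1 was at 32.7 CPM. Over the sums, 14 of the 15 microglia markers had a count in 97Q RGFP109, with a summed level of 33.2 to 4789 CPM, and 10 of 15 had one in 25Q RGFP109, with 30.1 to 48.8 CPM. Cell 9 and 2 other neurons, cells 2 and 4 of batch 1, were under 25% of the pan-neuronal median; all 3 belonged to 97Q RGFP109 and none to the other 3 groups. Cell 4 also had 12037 CPM over the astrocyte markers. Results that cell 9 moves are given with it and without it, a choice made after its values had been seen.

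**Figure D1:**
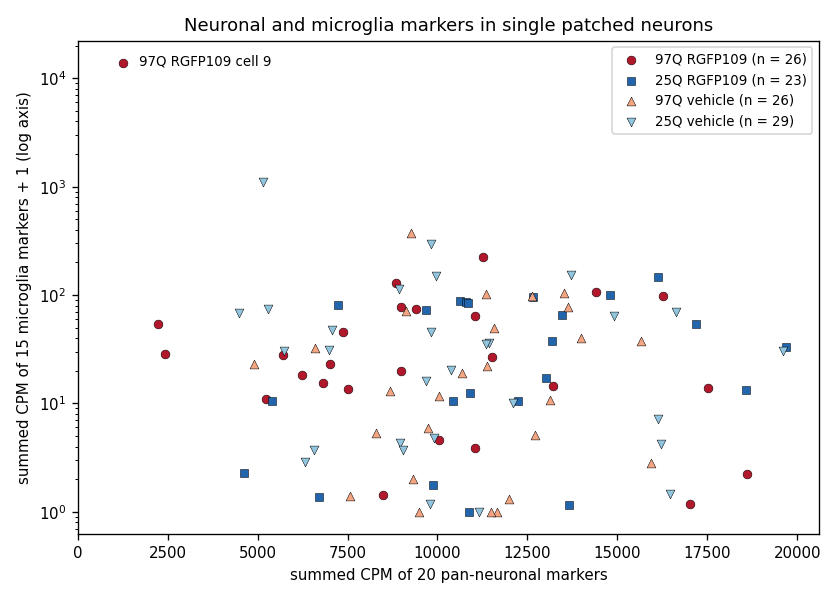
Each symbol is 1 neuron, with the summed CPM of 20 pan-neuronal markers across and the summed CPM of 15 microglia markers plus 1 on a log axis upward. Cell 9 of 97Q RGFP109 stands alone at the upper left with 13842 CPM of microglia markers, and the other neurons reach at most 1106 CPM.

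Across all genes no single difference between 97Q and 25Q under RGFP109 had a Benjamini-Hochberg adjusted p under 0.05 in edgeR's quasi-likelihood test, so 0 of 15091 tested genes (0%) were called. The lowest adjusted p was 0.0742, shared by Nnat and Gad1. At an unadjusted p under 0.05 there were 564 genes (3.74%), of which 287 (1.9%) were higher and 277 (1.84%) lower in 97Q. The same sums gave 277 called genes (1.84%) with DESeq2, 139 higher (0.921%) and 138 lower (0.914%). With limma they gave 3 (0.0199%), namely 1110015O18Rik and Gas1 (0.0133%), which were higher, and Nnat (0.00663%), which was lower. Single genes below are therefore given as values with unadjusted p from edgeR, and none of them is called by edgeR. Log2 differences over all tested genes were centred at a median of 0.0029, with 50.1% of genes higher and 49.9% lower in 97Q.

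Gad1 and Gad2, the enzymes that make GABA, had lower levels in 97Q than in 25Q neurons under RGFP109. In batches 1, 2 and 3 Gad1 had 341, 373 and 1092 CPM in 97Q RGFP109 neurons, against 1710, 1746 and 3548 CPM in 25Q RGFP109 neurons. Every 97Q sum lay below every 25Q sum, which held for 3.59% of all tested genes in this direction. The log2 fold change of Gad1 was -2.11 ± 0.247 (SE), with a Benjamini-Hochberg adjusted p of 0.0742 in edgeR's quasi-likelihood test, and the differences by batch were -2.32, -2.22 and -1.70.

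Single neurons showed the same order. The median neuron had 494.8 CPM of Gad1 in 97Q RGFP109 (range 5.66 to 3644) and 2055 CPM in 25Q RGFP109 (range 279.5 to 6758), so the 2 groups of cells overlapped widely while the low end was held by 97Q neurons. At least 100 CPM was reached by 21 of 26 97Q neurons (80.8%, exact 95% interval 60.6 to 93.4%) and by 23 of 23 25Q neurons (100%, interval 85.2 to 100%); these intervals cover counting error only. Of the 5 97Q neurons under 100 CPM, 3 were cells 2, 4 and 9, the neurons low in pan-neuronal markers. Without these 3 cells 21 of 23 97Q neurons reached 100 CPM (91.3%, exact interval 72 to 98.9%), the lowest had 17.6 CPM and the median was 521.8 CPM. Without cell 9 the batch 2 value of 97Q was 427 CPM and the log2 fold change -2.05, and without the 9 RGFP109 neurons richest in astrocyte markers, left out with 11 such vehicle neurons, it was -1.32.

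Gad2 was lower as well. It had 565, 360 and 707 CPM in 97Q RGFP109 sums, against 1378, 1154 and 1393 CPM in 25Q RGFP109 sums, and again no 97Q sum reached a 25Q sum. The log2 fold change was -1.30 ± 0.238 (SE; unadjusted p = 0.000329, adjusted p = 0.728 by edgeR), and -1.25 without cell 9. Medians over single neurons were 610.2 CPM in 97Q, against 1280 CPM in 25Q, and 22 of 26 97Q neurons against 23 of 23 25Q neurons reached 100 CPM. Cells 2, 4 and 9 were 3 of the 4 97Q neurons below that level, and without them 22 of 23 97Q neurons reached it.

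**Figure D2:**
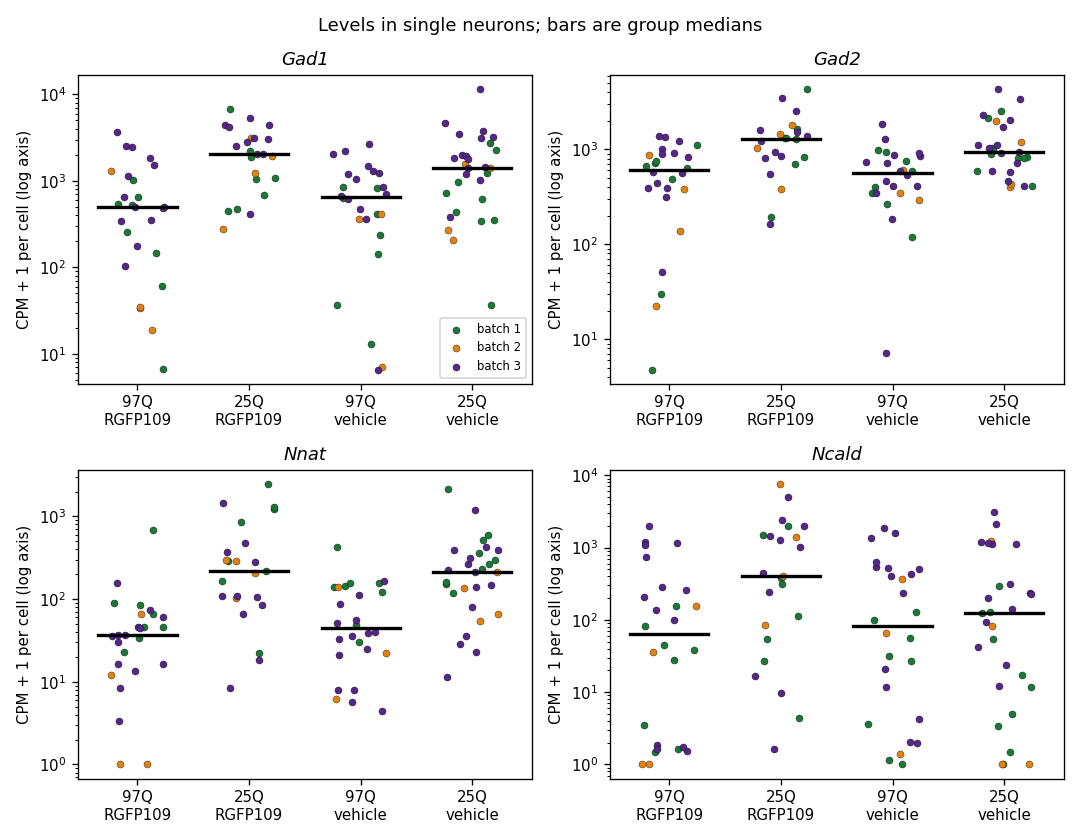
Each point is 1 neuron, with CPM plus 1 on a log axis, coloured by batch, and bars are group medians for Gad1, Gad2, Nnat and Ncald. The median of 97Q RGFP109 neurons lies below that of 25Q RGFP109 neurons for each of the 4 genes, 494.8 against 2055 CPM for Gad1 and 35.6 against 219.2 CPM for Nnat.

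The rest of the GABA pathway was mixed. Abat, which degrades GABA, had 266, 155 and 323 CPM in 97Q RGFP109 sums, against 284, 136 and 385 CPM in 25Q RGFP109 sums, and its log2 fold change was -0.05 ± 0.239. That of the vesicular transporter Slc32a1 was also -0.05 with a standard error of 1.02, too wide to place it, because it had only 2.77 to 20.9 CPM in 97Q and 8.99 to 19.6 CPM in 25Q; it also shares exon sequence with Gm14205 on the other strand. Of 11 tested members of the list for GABA synthesis, packaging and uptake, 9 were lower in 97Q, 3 of them, Gad1 and Gad2 included, at an unadjusted p under 0.05, and the median was -0.38. The GABA receptor list had 11 of 17 members lower with a median of -0.24, and the 2 at an unadjusted p under 0.05 were the subunit genes Gabrg1 (-2.52) and Gabra5 (-2.38). Over all tested genes 49.9% were lower, and 1.84% were lower at an unadjusted p under 0.05 by edgeR.

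Gad1 lies on chromosome 2 at chr2:70553072-70602014 (plus strand, ENSMUSG00000070880), Gad2 at chr2:22622205-22693874 (plus strand, ENSMUSG00000026787) and Nnat at chr2:157560078-157562522 (plus strand, ENSMUSG00000067786), all on GRCm38. Their promoters are shown because the comparison turns on these 3 genes and the compound acts on chromatin. Each sequence runs 5′ to 3′ from 250 bases before to 50 bases after the RefSeq start on GRCm38.p6, and capitals mark a GC box (GGGCGG or its reverse complement CCGCCC, both strands searched).
Gad1 chr2:70561879-70562178, plus strand: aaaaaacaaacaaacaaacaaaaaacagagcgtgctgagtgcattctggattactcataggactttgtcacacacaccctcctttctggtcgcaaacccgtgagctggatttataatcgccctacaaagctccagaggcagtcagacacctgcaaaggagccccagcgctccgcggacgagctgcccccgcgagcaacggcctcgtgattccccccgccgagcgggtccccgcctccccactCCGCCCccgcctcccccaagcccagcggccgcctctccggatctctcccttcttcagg
Gad2 chr2:22622077-22622376, plus strand: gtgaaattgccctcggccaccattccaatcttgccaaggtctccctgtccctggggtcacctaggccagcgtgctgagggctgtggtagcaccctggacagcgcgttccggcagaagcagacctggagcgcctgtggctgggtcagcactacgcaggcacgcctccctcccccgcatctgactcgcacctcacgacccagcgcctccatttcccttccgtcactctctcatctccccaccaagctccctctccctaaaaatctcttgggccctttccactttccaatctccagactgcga
Nnat chr2:157559828-157560127, plus strand: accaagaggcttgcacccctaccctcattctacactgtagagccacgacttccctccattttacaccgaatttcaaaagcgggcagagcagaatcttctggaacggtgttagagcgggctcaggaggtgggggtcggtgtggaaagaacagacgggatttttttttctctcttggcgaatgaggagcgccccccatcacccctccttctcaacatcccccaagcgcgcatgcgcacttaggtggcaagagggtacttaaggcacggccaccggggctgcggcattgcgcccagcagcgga
The Gad1 window holds 1 GC box and 21 CG pairs, the Gad2 window none and 14, and the Nnat window none and 17. Over 32851 RefSeq promoter windows of that length, 35.7% hold a GC box, the median has 7 CG pairs and 36.3% have at least 14. The matches describe these windows and say nothing of factor binding, and acetylation at them was not measured.

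Beyond the GABA enzymes, the genes that led the lower side were Nnat, Ncald, Dbpht2, Cdh13, Pnck, Calb2, Prokr2 and Tcf4. Nnat, the maternally imprinted gene of neuronatin, a small membrane protein of the endoplasmic reticulum, had 74.5, 20.2 and 44.6 CPM in 97Q sums, against 743, 223 and 304 CPM in 25Q sums, without overlap. Its log2 fold change was -3.17 ± 0.352 (SE), with a Benjamini-Hochberg adjusted p of 0.0742 in edgeR's quasi-likelihood test, and without cell 9 it was -3.21. In single neurons 100 CPM was reached in 2 of 26 97Q cells and 18 of 23 25Q cells. The small RNA gene Gm23134 lies inside Nnat on the other strand, and its -3.03 cannot be told apart from the Nnat reads since no source used here says whether reads were counted by strand.

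Ncald, which encodes the calcium sensor neurocalcin delta, had 45.6, 68.1 and 453 CPM in 97Q sums, against 447, 2137 and 1526 CPM in 25Q sums; the highest 97Q sum just exceeded the lowest 25Q sum. The log2 fold change was -3.37 ± 0.581 (unadjusted p = 0.000223), and Gm28221, which overlaps Ncald on the other strand, had -3.19. Cdh13, the gene of T-cadherin, had 71.4, 126 and 361 CPM in 97Q and 323, 350 and 1040 CPM in 25Q, lower in each batch though the ranges overlap, with a log2 fold change of -1.76. Pnck, a kinase activated by calcium and calmodulin, was at -1.28, Dbpht2 at -2.09 and the transcription factor Tcf4 at -1.74, each lower in all 3 batches and without overlap between the groups. The value of Tcf4 was -0.75 without the neurons rich in astrocyte markers, and its mean difference over batches was -0.97 in place of -1.75 without the 25Q cell with the largest share of its counts.

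Calb2 and Prokr2 showed larger ratios that a few cells carried. Calb2, the gene of the interneuron marker calretinin, had 0.0341, 0.0991 and 35.1 CPM in 97Q sums, against 152, 178 and 587 CPM in 25Q sums, but cell 23 of the 25Q group held 52.4% of all its RGFP109 counts. It reached 100 CPM in 1 of 26 97Q neurons and in 10 of 23 25Q neurons. Prokr2, a prokineticin receptor, had 2.73, 0 and 7.8 CPM in 97Q and 404, 32.3 and 55.7 CPM in 25Q, with 71.4% of its counts in cell 1 of the 25Q group.

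Among genes higher in 97Q under RGFP109, some were spread over many cells. Twsg1, a secreted modulator of BMP signalling, had 103, 69.9 and 58.1 CPM in 97Q sums, against 26.9, 19.4 and 8.87 CPM in 25Q sums, without overlap, as in 3.81% of all tested genes in this direction, and its log2 fold change was 2.19 ± 0.447 (SE; unadjusted p = 0.000708). At least 10 CPM of it was seen in 19 of 26 97Q neurons and in 11 of 23 25Q neurons. The median neuron had 41.5 CPM of Twsg1 in 97Q RGFP109 and 2.95 CPM in 25Q RGFP109. Under vehicle the medians were 54.4 CPM in 97Q and 32.5 CPM in 25Q. Chuk, which encodes the kinase IKK-alpha of the NF-kappaB pathway, had 264, 147 and 79.2 CPM in 97Q and 85.9, 66.4 and 25.3 CPM in 25Q, higher in each batch, with a log2 fold change of 1.47, and the batch 2 value of 97Q was 158 CPM without cell 9. Without the neurons rich in astrocyte markers the log2 fold change of Chuk was 2.73. Over single neurons its median was 86.8 CPM in 97Q, against 3.76 CPM in 25Q, and under vehicle 85.08 CPM in 97Q, against 20.45 CPM in 25Q.

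Ago3, an Argonaute protein of RNA silencing, had 23.9, 207 and 64.3 CPM in 97Q and 3.46, 4.2 and 11.8 CPM in 25Q, and its log2 fold change was 3.70, and 2.89 without the neurons rich in astrocyte markers. Adgrl2, the adhesion receptor latrophilin 2, had 208, 273 and 53.3 CPM in 97Q and 58.3, 34.8 and 36.3 CPM in 25Q, a log2 fold change of 1.76. For both, no cell held more than 13.4% of the RGFP109 counts. Adgrl2 shares exon sequence with Gm43573. The median neuron had 31.7 CPM of Ago3 in 97Q RGFP109 and 1.52 CPM in 25Q RGFP109. Under vehicle it had 28 CPM of Ago3 in 97Q and 48.8 CPM in 25Q, so 25Q RGFP109 was the lowest of the 4 groups. Medians of Adgrl2 were 80.3 and 28.2 CPM in 97Q and 25Q under RGFP109, and 90.6 and 57.95 CPM under vehicle.

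Other higher genes were nearly silent in 25Q RGFP109 neurons and rested on few cells. Transcript 1110015O18Rik had 26.1, 3.96 and 21.1 CPM in 97Q sums, against 0, 0 and 0.0204 CPM in 25Q sums. That is 2441 counts in 10 of 26 97Q neurons and 1 count in 1 of 23 25Q neurons. The depth-scaled ratio was 1970, with an exact 95% counting interval of 354 to 78000. That interval takes each read as independent and leaves out the spread between cells and batches, and cell 1 held 27.6% of the 97Q counts. Gas1, a growth arrest gene, had 19.1, 15.3 and 3.14 CPM in 97Q and 0.278, 0.0954 and 0 CPM in 25Q, with 43.7% of its counts in cell 4, one of the neurons low in pan-neuronal markers, and it overlaps Gm48488. Emx2os, which overlaps Emx2 on the other strand, had 7.78, 7.73 and 17.1 CPM in 97Q and 0.0618, 0 and 0.224 CPM in 25Q, with a count in 10 of 26 97Q neurons and 3 of 23 25Q neurons. Slc38a3, a glutamine transporter, had 18.2, 204 and 37.6 CPM in 97Q and 2.32, 4.68 and 1.77 CPM in 25Q, with 39.1% of its counts in a single 97Q cell. In 25Q vehicle neurons 1110015O18Rik, Gas1, Emx2os and Slc38a3 had 1141, 530, 803 and 1376 counts. In 97Q vehicle neurons they had 1302, 867, 1333 and 862 counts. The vehicle counts rested on few cells too, since each of these genes had a median of 0 CPM over 25Q vehicle neurons. Cell 18 held 84.6% of the Emx2os counts of that group. These genes were named by their RGFP109 contrast, so a lower level in 25Q RGFP109 than in 25Q vehicle neurons is no separate result.

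Immune genes in this group moved with cell 9. Cd274, the gene of the checkpoint ligand PD-L1, had 0.205, 233 and 6.26 CPM in 97Q sums and was at 0 in the 3 sums of 25Q. Against a floor of 3 counts over the 25Q group it was at least 766-fold higher in 97Q, but 82.8% of the counts lay in cell 9, and without that cell the bound was 137-fold. Serpinb9, a granzyme B inhibitor, had 7.47, 190 and 30.7 CPM in 97Q and 0.124, 0 and 0 CPM in 25Q; without cell 9 the batch 2 value was 0.118 CPM and the log2 fold change 8.51 in place of 10.64. Tnfaip3, which encodes the NF-kappaB inhibitor A20, had 8.46, 18.1 and 7.38 CPM in 97Q and 0, 0 and 0.183 CPM in 25Q, and its batch 2 value was 0 without cell 9, with 51.9% of the counts in another 97Q cell. Bcap31, a chaperone of the endoplasmic reticulum membrane, had a log2 fold change of 1.28 with cell 9 and 0.47 without it.

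**Figure D3:**
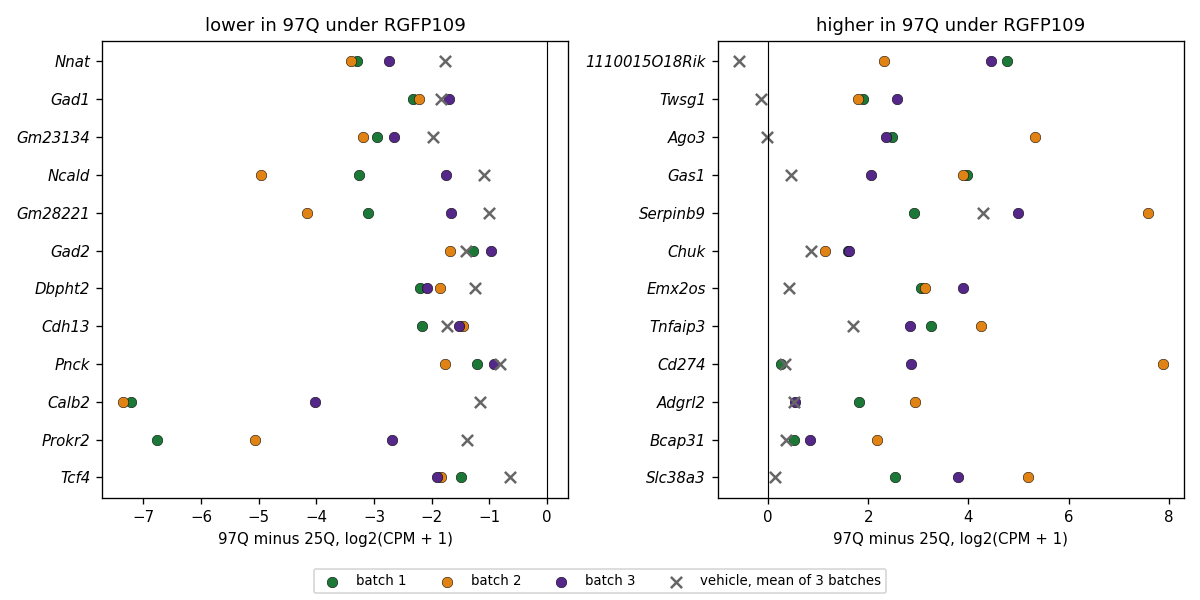
Differences of log2(CPM + 1), 97Q minus 25Q, for the 12 lower and 12 higher genes with the smallest p among genes of at least 10 CPM and 1 direction in all 3 batches. Coloured points are the 3 batches under RGFP109 and crosses are the vehicle mean; Gad1, Gad2 and Cdh13 have crosses close to their points, whereas Twsg1 and Ago3 have crosses near 0.

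The same contrast in the vehicle groups, which consist of other cells, gave 371 genes lower (2.46%) and 226 higher (1.5%) in 97Q at an unadjusted p under 0.05 by edgeR, 597 in all (3.96%). Of the 371 lower genes, 265 (71.4%) were also lower in 97Q under RGFP109, where 49.9% of all tested genes were, with a median log2 fold change of -0.55. In single batches the share was 63.6, 56.1 and 67.9%, with 49.5, 48.9 and 49.2% for all genes. 117 of the 371 genes (31.5%) were lower in all 3 RGFP109 batches, as were 13.6% of all genes. An unadjusted p under 0.05 in the RGFP109 contrast too was reached by 51 of the 371 in the same direction and by 10 in the other.

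Of the 226 genes higher in 97Q under vehicle, 150 (66.4%) were higher under RGFP109, with 50.1% for all genes, but the median was only 0.20. By batch the share was 59.7, 54.9 and 64.2%, with 50.3, 46.2 and 50.6% for all genes, and 18 reached an unadjusted p under 0.05 in the same direction and 3 in the other. Without cell 9 the shares were 70.6% of 361 lower and 65.3% of 213 higher genes, with 51.7 and 48.3% for all genes. Both contrasts came from 1 fit and share its batch term and its estimate of the spread, so these shares are a description and carry no test. Across all 15091 genes the 2 contrasts correlated weakly (Pearson r = 0.097, Spearman rho = 0.096).

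**Figure D4:**
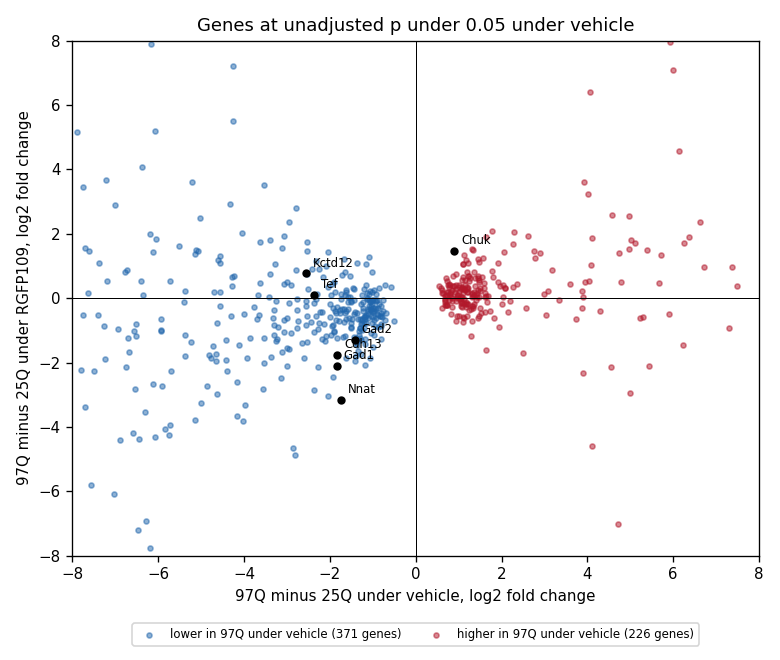
Each point is a gene with an unadjusted p under 0.05 for 97Q against 25Q under vehicle, with its log2 fold change under vehicle across and under RGFP109 upward; 573 of 597 genes lie inside the axes of ±8. Of the genes lower under vehicle, 71.4% lie below the horizontal line, Gad1, Gad2, Nnat and Cdh13 among them, while Tef and Kctd12 lie above it.

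The 69 genes at an unadjusted p under 0.05 in the same direction in both contrasts, 51 lower and 18 higher, were led by Gad1 and Gad2. Gad1 had 276, 240 and 1080 CPM in 97Q vehicle sums, against 892, 1198 and 3128 CPM in 25Q vehicle sums, and its log2 fold change was -2.11 under RGFP109 beside -1.83 under vehicle. Gad2 had -1.30 under RGFP109 beside -1.42 under vehicle. The difference of the 2 contrasts had an unadjusted p of 0.431 for Gad1 and 0.717 for Gad2, and a p that misses the threshold does not show the effects to be equal.

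Others lower in both included Vsnl1, Rab3c, Cadm1, Cdh13, Hdac9 and Meis2, named after their values were seen. Under RGFP109 and then under vehicle, the log2 fold changes were -1.26 and -1.18 for Vsnl1, the calcium sensor visinin-like 1, -1.30 and -1.26 for Rab3c, a small GTPase of synaptic vesicles, and -1.15 and -0.98 for Cadm1, a synaptic adhesion molecule. Cdh13 had -1.76 and -1.83. Hdac9, a class IIa histone deacetylase, had -1.81 and -1.38, and Meis2, a transcription factor of the striatal lineage, -1.39 and -1.38. Higher in both were Chuk, at 1.47 and 0.90, Psmd3, a subunit of the regulatory particle of the proteasome, at 1.06 and 1.11, and Serpinb9 and Tnfaip3, which under vehicle had 4.73 and 5.92 and whose RGFP109 values depend on cell 9 as given above. Under vehicle Chuk was not higher in every batch.

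Several genes that led the vehicle contrast had RGFP109 values near 0 or of the opposite sign. Tef, a circadian transcription factor, had 215, 119 and 53 CPM in 97Q RGFP109 sums and 155, 149 and 48.5 CPM in 25Q RGFP109 sums, a log2 fold change of 0.11. Under vehicle it had 65.1, 38.3 and 16 CPM in 97Q and 146, 278 and 113 CPM in 25Q, a log2 fold change of -2.36, and the difference of the 2 contrasts was 2.47 (unadjusted p = 0.00152). Kctd12, an auxiliary subunit of the GABA-B receptor, had 0.77 under RGFP109 (0.22 without cell 9) and -2.55 under vehicle, and the difference was 3.32 (unadjusted p = 0.000703). Both share exon sequence with another gene. Pnmal2 had -0.45 and -1.75, lower in both but with an unadjusted p of 0.0261 for the difference.

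Of the genes that led upward under vehicle, Prkaa1, a catalytic subunit of the AMP-activated kinase, had 0.03 under RGFP109 and 1.43 under vehicle. Bmi1, a Polycomb protein, had 0.30 and 2.08, Efr3a 0.14 and 1.61, Igfbp2, an IGF-binding protein, -0.18 and 2.02, and Tubgcp6, of the gamma-tubulin complex, 0.07 and 1.69. For these 5 the unadjusted p of the difference lay between 0.0184 and 0.0471. By contrast Ube2e3, a ubiquitin-conjugating enzyme (0.62 and 1.26), and the proteasome subunit Psma1 (0.20 and 0.76) had 0.209 and 0.104.

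The interaction, the RGFP109 contrast minus the vehicle contrast, called 0 of 15091 genes (0%) with edgeR and 0 with limma at an adjusted p under 0.05. At an unadjusted p under 0.05 there were 393 genes (2.6%) by edgeR, 239 positive (1.58%) and 154 negative (1.02%), and 632 (4.19%) by limma. DESeq2 called 70 genes (0.464%), 56 positive (0.371%) and 14 negative (0.0928%). The 4 genes with the smallest p at the level required were 1110015O18Rik (11.27), Kctd12 (3.32), Tef (2.47) and Rrm2 (-11.75). Rrm2, a subunit of ribonucleotide reductase used in DNA synthesis, had 0.205, 0 and 0.0646 CPM in 97Q RGFP109 sums and 4.6, 4.68 and 14 CPM in 25Q RGFP109 sums, the reverse of vehicle, where 97Q had 18.4, 13.8 and 4.77 CPM and 25Q had 2.47, 0 and 0.433 CPM. Cell 16 of the 25Q group held 51% of its RGFP109 counts. Nnat and Ncald had larger differences under RGFP109 than under vehicle, -3.17 beside -1.75 and -3.37 beside -1.08, with an unadjusted p of 0.0132 and 0.0129 for the difference.

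Lists of functionally related genes put these values in context. Each list is described by its counts and its median beside those of all tested genes. Of all tested genes 49.9% were lower under RGFP109 and 47.6% under vehicle, where 52.4% were higher. At an unadjusted p under 0.05 by edgeR, 1.9% of all tested genes were higher and 1.84% lower under RGFP109. These shares stand beside each count of members at that level below, and lists carry no test. Genes of the synapse differed by list. In the list of glutamate receptors and postsynaptic proteins 33 of 45 members were lower (median -0.45, and -0.54 under vehicle), 4 of them at an unadjusted p under 0.05. These were the kainate receptor subunit Grik1 (-2.74), the kinase subunit Camk2d (-1.45), the AMPA receptor auxiliary subunit Cacng3 (-1.16) and the scaffold protein Dlgap2 (-1.98), with 0 members higher at that level. Synaptic vesicle release had 27 of 39 members lower (median -0.40), and calcium channels and handling 30 of 44 (median -0.24, and -0.70 under vehicle). Calm2, which encodes calmodulin, was at -0.41. Sodium and potassium channels had 28 of 46 lower, with a median of -0.41. Synaptic adhesion had 24 of 42 lower (median -0.17), with 3 higher and 3 lower at an unadjusted p under 0.05, and the inhibitory postsynapse and chloride list had 10 of 21 lower, with a median of 0.0029.

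These medians were not alike in the 3 batches. For the glutamate receptor list they were -0.046, -0.52 and -0.37, for vesicle release -0.64, -0.28 and 0.075, and for sodium and potassium channels -0.15, -0.36 and 0.099. Pan-neuronal markers themselves were lower in 97Q under RGFP109 in 17 of 20 cases with a median of -0.51, while their median under vehicle was 0.22. By batch their RGFP109 medians were -0.59, -0.67 and -0.027, and 7 of the 20 were lower in all 3 batches. Stmn2, a microtubule regulator of axons, had 944, 1386 and 2606 CPM in 97Q RGFP109 sums and 1253, 3806 and 2898 CPM in 25Q RGFP109 sums. Elavl4 had a log2 fold change of -2.43, though it was not lower in every batch, and Dcx of -0.92. Without cell 9 the pan-neuronal median was -0.47 and the postsynaptic median -0.42; without the 3 neurons low in pan-neuronal markers they were -0.38 and -0.43. The part of this difference in pan-neuronal markers in the synaptic lists was not tested.

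The projection neuron markers, of which 30 of 34 were lower in 97Q under vehicle (median -1.52), were near even under RGFP109, with 20 of 34 lower and a median of -0.14. The batches disagreed, with medians of 0.0089, 0.99 and -0.79, and so did defining genes. Drd1, the D1 dopamine receptor, had 9.11, 0 and 13.7 CPM in 97Q and 73.8, 2 and 98.8 CPM in 25Q, whereas Drd2, the D2 receptor, had 9.86, 34.8 and 6.92 CPM in 97Q and 17.8, 0 and 0.102 CPM in 25Q. Ppp1r1b had 320, 50.7 and 8.12 CPM in 97Q and 281, 0.573 and 40.4 CPM in 25Q, a log2 fold change of -0.71 ± 1.54. Penk, the enkephalin precursor, had 81.5% of its RGFP109 counts in 1 cell, and Adora2a, an adenosine receptor, had 55.9% in the same cell of the 25Q group. Of the 34 markers, 3 had an unadjusted p under 0.05 by edgeR for a more positive difference under RGFP109 than under vehicle and 0 for a more negative one. Over all tested genes these shares were 1.58 and 1.02%.

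Striatal interneuron markers were lower in 97Q in 6 of 8 tested members, with a median of -3.11 under RGFP109 and -2.23 under vehicle. The batches differed, with medians of -4.33, -0.52 and -0.31 under RGFP109 and -0.94, 0 and -2.15 under vehicle. With 1 batch left out the RGFP109 median ran from -4.97 to -0.66. Summed over the 20 genes of the list, 97Q RGFP109 sums had 34.3, 144.8 and 138.2 CPM and 25Q RGFP109 sums 670.9, 265 and 670.4 CPM, so the groups did not overlap. Calb2, described above, reached 100 CPM in 10 of 23 25Q RGFP109 neurons. Under vehicle it did so in only 2 of 29 25Q neurons and 1 of 26 97Q neurons. Some other members rested mostly on 1 cell. Kit, a receptor tyrosine kinase, had 94.7% of its RGFP109 counts in cell 3 of the 25Q group and Sst, the somatostatin gene, 71.5% in cell 4. Reln, the gene of the secreted protein reelin, had 1.84, 155 and 37.9 CPM in 97Q and 188, 77.7 and 114 CPM in 25Q, so its batches went both ways. Whether the 25Q groups held more interneurons or more RNA of these genes per cell cannot be told apart in the sums, and the part of interneurons in the Gad1 difference was not tested.

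Protein turnover was described by the lysosome and proteasome lists. In the autophagy and lysosome list 29 of 37 members were higher in 97Q under RGFP109, with a median of 0.36 (0.19 under vehicle) and 0.17, 0.54 and 0.32 by batch. Ctsb, which encodes cathepsin B, had 1359, 2036 and 2213 CPM in 97Q and 1056, 785 and 1649 CPM in 25Q, and the proton pump subunits Atp6v0a1 and Atp6v1h had log2 fold changes of 0.53 and 0.52. The lysosomal median was 0.38 without cell 9, although single genes depended on that cell; Ctsl, the gene of cathepsin L, was at 1.83 with it and 0.16 without it. Proteasome genes were higher in 31 of 44 cases with a small median of 0.1, beside 39 of 44 and 0.46 under vehicle, and by batch the medians were -0.025, 0.28 and 0.1. Psmd3 (1.06), Psmc3 (0.54) and Psmd5 (0.66) were higher at an unadjusted p under 0.05, and 1 member was lower at that level.

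Interferon and innate immunity genes were higher in 19 of 29 cases with a median of 0.29, but without cell 9 the median was -0.02 and 15 of 29 were lower. The batches disagreed as well, with RGFP109 medians of -0.64, 0.67 and 1.43, and with 1 batch left out the median ran from -0.19 to 1.56. Under vehicle the median was 1.22, with 22 of 29 higher. Irf9, a transcription factor of interferon signalling, had 0.85 under RGFP109 and 1.79 under vehicle. Tap2, a peptide transporter of antigen presentation, had 22.3, 0.594 and 13.6 CPM in 97Q and 0.0309, 0 and 0.143 CPM in 25Q, and Rsad2, the gene of the antiviral protein viperin, had 44.5% of its counts in 1 cell. The oxidative stress list had 21 of 31 members higher (median 0.25), and 0.063 without cell 9. Gclc, the catalytic subunit of the enzyme that starts glutathione synthesis, and Txnrd1, a thioredoxin reductase, had 1.75 and 1.17, and 1.54 and 1.12 without cell 9, whereas the peroxiredoxin gene Prdx1 had 2.95 with and 0.12 without it.

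Genes tied to the compound were examined next. The targets Hdac1 and Hdac3 had log2 fold changes of -0.28 ± 0.837 and 0.37 ± 0.285 (SE), and Hdac2 of 0.19 ± 0.55. Of 29 tested histone deacetylase and corepressor genes 15 were higher and 14 lower, with a median of 0.019; at an unadjusted p under 0.05 there were 2 higher and 1 lower, the last being Hdac9 (-1.81). The 17 tested genes known to respond to deacetylase inhibitors were lower in 11 cases, with a median of -0.27 under RGFP109 and 0.43 under vehicle. Of 10 replacement histone genes 8 were lower, with a median of -0.48 (0.44 under vehicle), and H3f3b, a gene of histone H3.3, had 312, 211 and 551 CPM in 97Q and 610, 329 and 802 CPM in 25Q. Its log2 fold change was -0.72 under RGFP109 and 0.57 under vehicle, and the unadjusted p of the difference was 0.00988. Among the other genes named, Cd274, Gabra5, Ppp1r1b, Penk, Reln, Ctsb, Ctsl, Atp6v1h, Psmd3, Psmc3, Irf9, Tap2 and Tubgcp6 share exon sequence with another gene, so their reads could have been split.

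**Figure D5:**
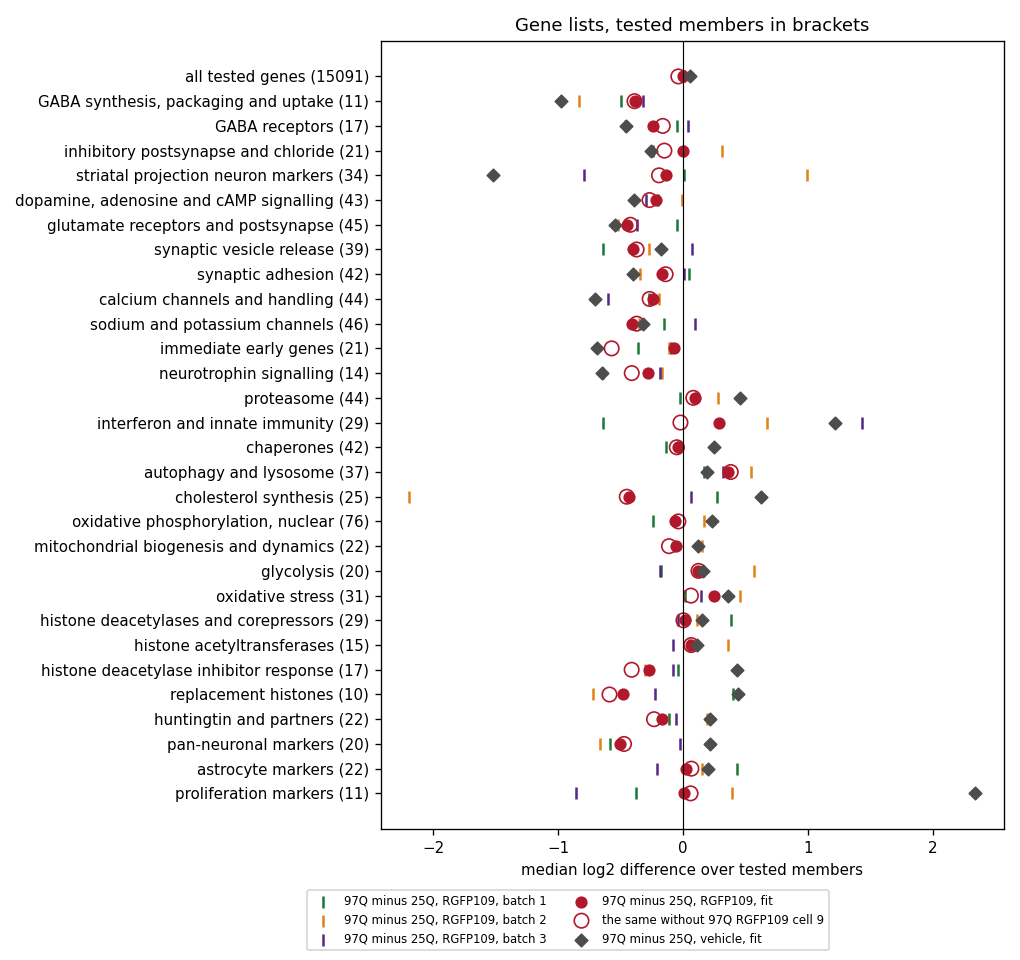
Median log2 difference, 97Q minus 25Q, over the tested members of each list. Filled circles are the RGFP109 fit, open circles the same without cell 9, short bars the 3 RGFP109 batches and diamonds the vehicle fit; projection neuron markers lie at -0.14 under RGFP109 and -1.52 under vehicle, and cholesterol synthesis at -0.44 and 0.62.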

How the data were processed

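Full-length cDNA of single patched cells was made with SMARTer chemistry and Nextera XT, per the labels' protocols, with no molecular identifiers named. The deposited values are raw counts of reads per Ensembl gene for each cell. HTSeq 0.9.1, STAR 2.5, Trimmomatic 0.36 and FastQC appear in the submitters' processing notes, with GRCm38 and mm10 as builds; annotation release and strand setting: not given in the sources used here. Of 53465 genes, 53274 were matched to a symbol and position in GENCODE release M21, and 58 of the 172 genes considered by name share exon sequence with another gene.

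A cell is no replicate, so raw counts were summed per group and batch (12 sums of 104 neurons in 4 groups). Sums of a shared batch pair: the deviations from group means of sums in 1 batch correlated across genes at 0.0969 to 0.299, and those in different batches at most 0.0347. Batch was therefore a term of the model. Genes passed edgeR's filterByExpr and had a count in at least 20% of the 104 neurons, which left 15091. edgeR 4.0.16 (TMM, robust quasi-likelihood, two-sided, Benjamini-Hochberg; R 4.3.3) fitted group and batch with 6 residual degrees of freedom and a biological coefficient of variation of 0.928. DESeq2 1.42.0 and limma 3.58.1 with voom weights were alternatives. Differences by batch are on the log2(CPM + 1) scale.

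Named genes were taken from the 12 higher and 12 lower with the smallest p, 1 direction in 3 batches and a mean of at least 10 CPM in a group; 4 per list; 8 per direction for the vehicle contrast; 4 for the interaction; and a fixed set of GABA, striatal and deacetylase genes. Genes counted in both contrasts and those of cell 9 were named after their values were seen. The members and all lists were chosen with earlier results of these data known. Intervals cover counting error only. The 14 astrocytes served to check markers, and 9 empty vector neurons of batch 3 entered no comparison. Some genes that these choices named are not reported here.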

Additional observations from a re-analysis of the deposited data

How the results depend on the processing

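The count of called genes depended on the test and the filter. Against 0 genes with edgeR, DESeq2 called 277 (297 without cell 9), limma 3, edgeR with no filter on low counts 3, and edgeR with a count in at least 50% of neurons or with each cell thinned to 900000 counts 2; DESeq2 size factors, the 6 RGFP109 sums alone, each batch left out, neurons rich in astrocyte markers left out, cell 9 left out and the 3 neurons low in pan-neuronal markers left out gave 0. The interaction had 70 genes with DESeq2 and 53 with DESeq2 without cell 9. Without the replicate block 0 genes were called, and 67.6% of the genes lower and 54.9% of those higher under vehicle had the same direction under RGFP109. The share of the lower genes was 64.5% with no filter, 58.7% without neurons rich in astrocyte markers and 60.6 to 70.6% with 1 batch left out; that of the higher genes was 57.9% with DESeq2, 58.1% with DESeq2 without cell 9, 60.4% after thinning and 57.4 to 64.7% with 1 batch left out. The causes were not tested.

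Of 86 genes named in the text, 71 kept the sign of their log2 fold change in every alternative fitted, Gad1 and Nnat among them. Both had an adjusted p under 0.05 with DESeq2, with no filter on low counts, with a count in at least 50% of neurons and after thinning, and Nnat also with limma; in the other alternatives, the loss of any batch among them, neither did. Signs turned for 15 genes. With 1 batch left out the values ran from -0.18 to 0.02 for Abat, -3.13 to 0.83 for Adora2a, -1.31 to 7.67 for Bdnf, -0.04 to 0.63 for Bmi1, -0.56 to 0.57 for Efr3a, -0.63 to 0.1 for Hdac1, -0.63 to 0.59 for Hdac2, -0.01 to 0.55 for Hdac3, -0.75 to 0.46 for Igfbp2, -5.71 to 7.64 for Penk, -1.49 to 0.55 for Ppp1r1b, -0.08 to 0.17 for Prkaa1, -0.81 to 0.73 for Slc32a1, -0.12 to 0.3 for Tef and -0.17 to 0.24 for Tubgcp6. Abat was at 0.3 without neurons rich in astrocyte markers, 0.02 without cell 9 (0.01 with DESeq2) and 0.09 without the 3 neurons low in pan-neuronal markers. Without the block Bdnf was at -0.61, Penk at -0.85 and Ppp1r1b at 0.24; with limma Penk was at -1.01, Ppp1r1b at 0.25, Prkaa1 at -0.01 and Slc32a1 at 0.23. After thinning Efr3a was at -0.07, Igfbp2 at 0.08, Penk at -0.47, Prkaa1 at -0.01 and Slc32a1 at 0.7. Without neurons rich in astrocyte markers Efr3a was at -0.22 and Ppp1r1b at 0.53. Ppp1r1b was at 0.64 in the 6 RGFP109 sums alone, and Slc32a1 at 0.05 without the 3 neurons low in pan-neuronal markers. Without neurons rich in astrocyte markers 29 of the 86 log2 fold changes moved by over 1.5 times, Gclc to 3.63, Gas1 to 5.36, Kit to -3.63 and Kctd12 to 3.48 among them. Leaving out its largest cell changed the sign of the mean batch difference for 8 of the 86 genes. Of 35 lists, 14 had a median that did not move beyond the spread in any alternative.

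The leave-outs of cell 9 and of the 3 neurons were chosen after seeing the data. With 3 to 15 cells per sum and 3 batches, the number of cells and batches limits these values; spread between animals was not measured.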

Other observations

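Cholesterol synthesis genes were lower in 18 of 25 cases with a median of -0.44, beside 0.62 under vehicle. The median came from 1 batch, since it was -2.19 in batch 2 and 0.27 and 0.061 in batches 1 and 3, and Pmvk, the gene of phosphomevalonate kinase, had 25.9, 58.7 and 133 CPM in 97Q and 76.3, 208 and 175 CPM in 25Q. In the glycolysis list 13 of 20 members were higher (median 0.12), yet the 3 with an unadjusted p under 0.05 were lower. These were Ldha, a lactate dehydrogenase subunit (-1.24), Tpi1, the gene of triose phosphate isomerase (-0.82), and Pfkp, a phosphofructokinase (-0.81). Nuclear genes of oxidative phosphorylation were lower in 43 of 76 cases with a median of -0.065, and chaperones in 22 of 42 with a median of -0.039.

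Markers of other cell types differed in both directions. All 7 tested oligodendrocyte lineage markers were lower in 97Q under RGFP109 (median -1.18), with 47.9 to 156.8 CPM summed in 97Q and 105.4 to 245.8 CPM in 25Q. By batch the medians were 0.52, -1.84 and -0.97, and 1 of the 7 was lower in all 3 batches. Astrocyte markers were even, with 12 of 22 higher and a median of 0.02, and summed to 1598 to 2490 CPM in 97Q and 1355 to 2307 CPM in 25Q. Slc1a2, the glutamate transporter GLT-1 and a member of that list, had 2.53, 5.65 and 36.2 CPM in 97Q, against 72.8, 170 and 96.3 CPM in 25Q, a log2 fold change of -3.81 (unadjusted p = 0.0027). Astrocytes of this series had little of it, with a median of 0.362 CPM over 14 cells and a maximum of 120.8. At least 10 CPM was reached in 5 of these 14 astrocytes, which were all of batch 3 and without RGFP109. The part of astrocyte material in the Slc1a2 difference was not tested. The median 25Q RGFP109 neuron reached 75.3 CPM, the median 97Q one only 1.98. Medians of vehicle neurons lay close together, at 12.1 with the 25Q fragment and 10.3 with the 97Q fragment. The transcriptional repressor Rest had 615 counts in 14 of 26 97Q RGFP109 neurons and 86 counts in 5 of 23 25Q RGFP109 neurons. Its log2 fold change was 8.12, and 5.82 without cell 9, with at most 21.8 CPM in a sum. That value is unstable, since it ran from 4.17 to 12.64 with 1 batch left out. The mean batch difference was 2.6, and 1.58 without the cell with most counts. Under vehicle Rest had 619 counts in 97Q and 926 in 25Q. Bdnf, the gene of a neurotrophic factor, had 1.4, 11.3 and 2.39 CPM in 97Q and 22.9, 0.0954 and 0 CPM in 25Q, so the batches disagreed. Tpi1, Pfkp, Slc1a2 and Bdnf share exon sequence with another gene.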
